A study of Mus musculus with 2 samples.

Results

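The Hippo pathway core was described here by 10 of the 20053 named genes on the array: the coactivator genes Yap1 and Wwtr1, the DNA-binding partner genes Tead1, Tead2, Tead3 and Tead4, the kinase genes Lats1 and Lats2, and the angiomotin-like genes Amotl1 and Amotl2. Its members are the array probes that the scanner files name after one of these genes, 19 probes of 41174 gene probes in all, each printed as 1 spot per array. The cells were expandable hepatoblasts (eHBs), liver progenitor cells from C57BL/6 mice kept in a defined medium. The medium of both groups held 10 ng/ml epidermal growth factor (EGF), 3 µM CHIR99021 (an inhibitor of the kinase GSK3), 2 µM E-616452 (which blocks the TGF-beta receptor ALK5), 5 µM lysophosphatidic acid (LPA) and 0.5 µM sphingosine 1-phosphate (S1P), on Matrigel or laminin. One group was at passage 5 and the other at passage 20, each with 1 array of total RNA. The labels say that different experiments supplied the passages. What is due to passage and what to experiment cannot be told apart, no difference below has a replicate check, and no test or p-value is given. The labels give neither the sex nor the age of the mice, nor whether animals were pooled.

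In the Hippo pathway, the kinases MST1 and MST2 (genes Stk4 and Stk3) activate LATS1 and LATS2, which phosphorylate the coactivators YAP and TAZ (genes Yap1 and Wwtr1) and keep them out of the nucleus. Unphosphorylated YAP and TAZ bind TEAD factors on DNA and switch on genes for growth and matrix proteins, and angiomotin family proteins hold YAP and TAZ in the cytoplasm. LATS2 and AMOTL2 are known both as inhibitors and as targets of YAP and TAZ. In the liver the pathway limits organ size and bears on whether cells take a hepatocyte or a duct fate. LPA and S1P are known to act on YAP and TAZ through G protein-coupled receptors. Most of this control is on protein phosphorylation and place in the cell, which RNA does not show.

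The TEAD factors recognise the letters GGAATG, read on the other strand as CATTCC. RefSeq windows of 250 bases before the annotated start (build GRCm38.p6) were held for 8 of the 10 members, in 12 windows; Tead1 and Tead4 were not among them. Either letter string was found in 6 of the 12 windows, which belong to Amotl2, Wwtr1, Yap1 and Tead3, against 12.6% of all 32851 windows of this length. Windows of 1 gene can overlap, so these counts are not independent. The window of Amotl2, the member with the largest difference below, is shown with those of Yap1 and of the known target gene Ccn1, with the matches in capitals. They lie at chr9:102717554-102717803 (plus strand), chr9:8004597-8004846 (minus strand) and chr3:145649986-145650235 (minus strand).
Amotl2: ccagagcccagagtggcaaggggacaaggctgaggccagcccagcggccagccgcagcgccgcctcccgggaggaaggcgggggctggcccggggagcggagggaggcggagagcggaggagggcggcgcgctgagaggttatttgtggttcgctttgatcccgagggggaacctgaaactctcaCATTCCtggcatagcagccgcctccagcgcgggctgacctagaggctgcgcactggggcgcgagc
Yap1: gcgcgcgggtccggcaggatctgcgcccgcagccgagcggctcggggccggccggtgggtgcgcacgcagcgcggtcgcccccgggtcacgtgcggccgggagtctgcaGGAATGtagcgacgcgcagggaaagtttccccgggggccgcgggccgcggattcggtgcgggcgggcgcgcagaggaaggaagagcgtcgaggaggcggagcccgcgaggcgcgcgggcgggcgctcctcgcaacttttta
Ccn1: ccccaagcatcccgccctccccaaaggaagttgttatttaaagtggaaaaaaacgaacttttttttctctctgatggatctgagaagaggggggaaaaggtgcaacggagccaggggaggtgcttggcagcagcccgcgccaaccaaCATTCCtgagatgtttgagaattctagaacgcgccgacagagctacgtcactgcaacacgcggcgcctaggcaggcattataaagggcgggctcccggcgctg
The match begins 65 bases before the start in Amotl2, 141 bases before it in Yap1 and 103 bases before it in Ccn1. The Lats1, Lats2, Amotl1 and Tead2 windows held neither string. Of 18 windows held for 17 of the target genes listed further below, Ccn1 among them, 6 (33.3%) held either string. The AP-1 letters TGANTCA, searched for separately, were in 0 of the 12 member windows and in 6.75% of all windows. A match in letters is not evidence of binding, and no binding was measured.

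The cells carried transcripts of YAP, TAZ, 3 TEAD factors, both LATS kinases and AMOTL2 at both passages. Both arrays read 14 of the 19 probes well above background, 1 more was so at passage 20 only and 4 on neither array. Those 4 were the 2 probes of Amotl1, the probe of Tead3 and the probe for the short Lats2 transcript. By the brightest probe of each gene, 8 of 10 members were therefore measured, and the other two, Tead3 and Amotl1, stayed short of the well-above-background flag on both arrays. Of the 8 measured genes 1 was at least 2-fold higher at passage 20, 0 were at least 2-fold lower and 7 were within 2-fold. Over the 11797 named genes that either array measured, 3.26% were higher by 2-fold or more and 5.74% lower by that much, so 1 of 8 is not a count that sets the members apart. Their median difference was 0.06 log2, against 0.07 log2 over all these genes. The number of arrays limits the precision of every value.

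Values below are the processed spot signal in scanner units, followed by the difference in log2 level, passage 20 minus passage 5, after each array's log2 signal is set relative to its own 75th percentile. The 75th percentile was a signal of 1085 at passage 5 and 853 at passage 20, so equal levels correspond to a lower signal at passage 20. Each difference of a probe above background on both arrays carries the error that the scanner software assigns to it (± scanner error), which ran from 0.20 to 0.35 log2 and rests mainly on a fixed 10% term per signal. Probes printed in 10 spots had a smaller technical spread: the SD of their single-spot differences had a median of 0.04 log2 and a 95th percentile of 0.16. Neither error covers variation between cultures. Probes differ in how well they hybridise, so levels are compared only within a probe.

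**Figure D1:**
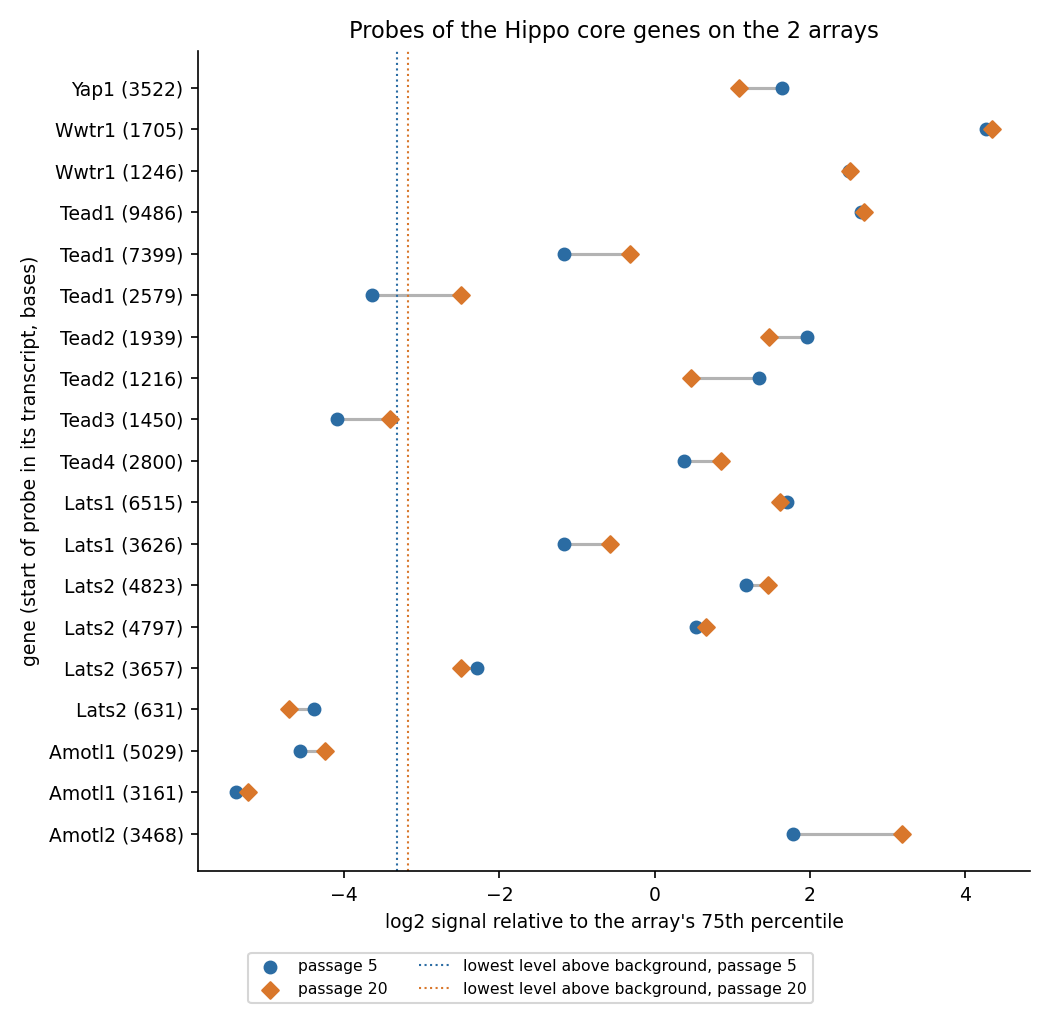
Log2 signal relative to the array's 75th percentile (x axis) of all 19 probes of the 10 genes (y axis, with the position in the transcript where each probe starts), 1 array per passage. Circles are passage 5, diamonds passage 20, and dotted lines mark the lowest level well above background on each array; the Amotl2 probe moves from 1.79 to 3.19, while both Amotl1 probes and the Tead3 probe lie left of the line of their array.

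Of the coactivator genes, Yap1 was lower at passage 20 and Wwtr1 was at a similar level. Yap1 encodes YAP, and its single probe gave a signal of 3397 at passage 5 and 1814 at passage 20. This is a difference of -0.56 ± 0.21 log2 (scanner error), 1.47-fold lower, and 9.95% of the 10748 named genes above background on both arrays had a lower value. The decrease was thus short of 2-fold but larger than the scanner error. Wwtr1 encodes TAZ, and its brighter probe gave signals of 20966 and 17366, a difference of 0.08 ± 0.20 log2. Its other probe, at 6144 and 4893, differed by 0.02 ± 0.20 log2. Both Wwtr1 probes differed by less than the scanner error. The gap between the genes, Wwtr1 minus Yap1, was 0.63 ± 0.29 log2. This gap does not depend on a constant scale between the arrays, and it ran from 0.61 to 0.63 over 12 alternative ways of processing. Alternatives that only rescale an array or filter dim probes cannot change such a gap, so its range rests on the remaining ones. The TAZ to YAP transcript ratio was thus 1.55-fold higher on the passage 20 array. The Yap1 probe lies at chr9:7932540-7932599 (mm9, minus strand), starting at base 3522 of its transcript, and the brighter Wwtr1 probe at chr3:57262551-57262610 (mm9, minus strand).

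The TEAD genes, which encode the DNA-binding partners of YAP and TAZ, differed from each other. Tead2, known from early embryos and neural progenitors, was lower at passage 20 by both of its probes. The brighter gave signals of 4237 and 2371, a difference of -0.49 ± 0.20 log2, and the other 2767 and 1183, a difference of -0.88 ± 0.21 log2. These are decreases of 1.40-fold and 1.84-fold. Of the genes measured on both arrays, 11.4% had a lower value than the brighter probe and 4.93% a lower value than the other. Tead4, known for its part in the trophoblast lineage, leaned the other way, with signals of 1409 and 1549 and a difference of 0.48 ± 0.21 log2, 1.40-fold higher. Tead4 minus Tead2 was 0.97 ± 0.29 log2, a ratio that was 1.96-fold higher on the passage 20 array, and ran from 0.92 to 1.17 over the 12 alternatives. The Tead4 difference itself fell to 0.27 when the arrays were scaled to spike-in RNA and to 0.17 when they were centred on the median. Tead3 has 1 probe, with signals of 63.5 and 80.2, not well above background on either array.

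The probes of Tead1, a broadly expressed TEAD gene, differed in the size of the change. The brightest, which starts at base 9486 of the transcript near chr7:120049844-120049903 (mm9, plus strand), gave signals of 6844 and 5525 and a difference of 0.04 ± 0.20 log2. The probe at base 7399 gave 483 and 687, a difference of 0.85 ± 0.22 log2 or 1.81-fold higher. The probe at base 2579 was above background at passage 20 only, at 86.7 and 151, and is at least 1.77-fold higher. Its base number counts along another transcript record than those of the other Tead1 probes. On the genome it lies on their 5′ side. The bright probe therefore showed a level within the scanner error on both arrays, and the dimmer ones a higher level at passage 20. All 3 values were above 0, and their size depended on the probe. Their mean was 0.57 log2, with the probe at base 2579 entered at its lower bound. Over all probes with levels from -2 to 0 the median difference was 0.10 log2 and the middle part of the distribution ran from -0.26 to 0.44 (quartiles), so the 0.85 of the probe at base 7399 lay above its upper quartile.

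**Figure D2:**
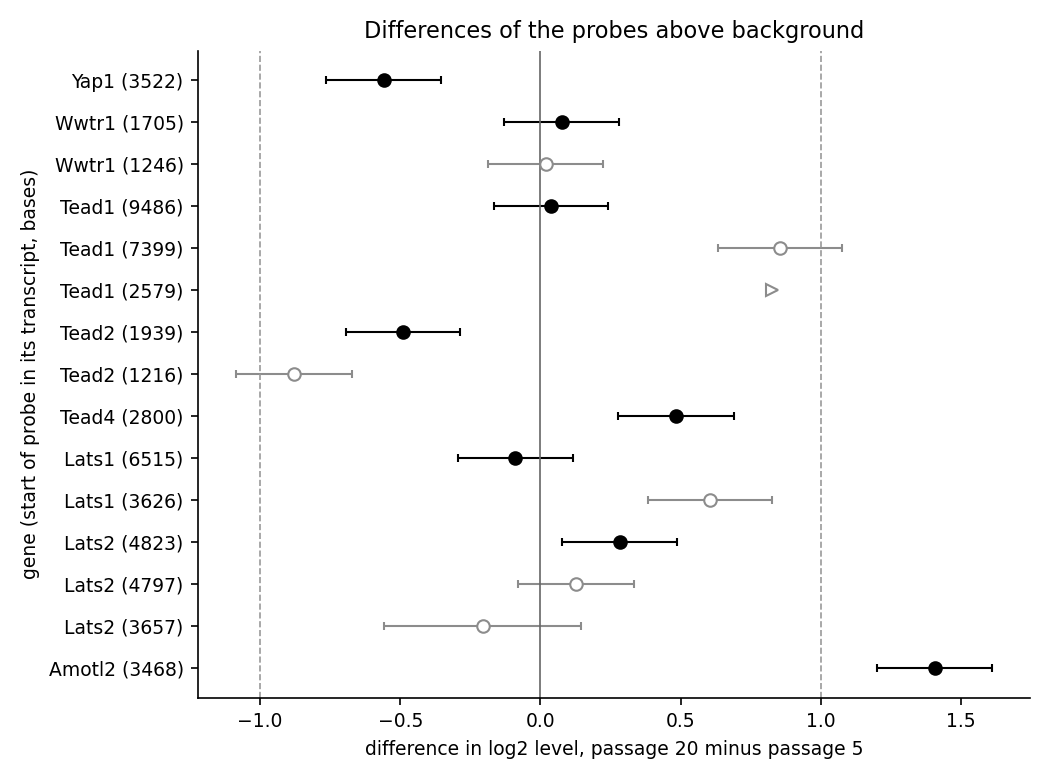
Difference in log2 level, passage 20 minus passage 5 (x axis), of the 15 probes above background on at least 1 array, by gene and start in the transcript (y axis). Bars are ± the scanner error of a difference, black points the brightest probe of each gene, open points its other probes, the open triangle a lower bound, and dashed lines 2-fold; the Amotl2 point at 1.41 alone lies beyond a dashed line, and the Tead1 and Lats1 probes spread over 0.82 and 0.69 log2.

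The LATS kinase genes were within 2-fold by every measured probe. LATS1 and LATS2 are the kinases that inactivate YAP and TAZ. The brightest Lats1 probe gave signals of 3528 and 2606, a difference of -0.09 ± 0.20 log2, and the probe nearer the start of the transcript gave 481 and 575, a difference of 0.60 ± 0.22 log2. Like those of Tead1, the Lats1 probes thus parted, with the probe nearer the 5′ end higher at passage 20. For Lats2 the signals of the brightest probe were 2454 and 2346 (0.28 ± 0.20 log2). A probe that shares 32 bases with it gave 1569 and 1347 (0.13 ± 0.21 log2). The third, at base 3657, gave 221 and 151 (-0.21 ± 0.35 log2). These probes straddle 0, and the values of the last 2 are smaller than their scanner errors. The probe for the short Lats2 transcript, at signals of 51.6 and 32.4, stayed short of the well-above-background flag on both arrays. Lats2 minus Lats1 was 0.37 ± 0.29 log2 by the brightest probes and kept its sign in 10 of 12 alternatives, with -0.19 as the lowest value, so no direction of that ratio can be given.

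The following probes show how the readings spread over a transcript, and their letters are given in full from the scanner files, 60 bases each and with no letter marked. The Tead2 probe is the one with the larger decrease (base 1216, chr7:52487612-52487671, mm9, plus strand). The Lats1 probe is the one with the higher value at passage 20 (base 3626, chr10:7432671-7432730, mm9, plus strand). The Wwtr1 probe is the dimmer one and spans 3468 bases of the genome, so that it crosses at least 1 exon junction (chr3:57263010-57266477, mm9, minus strand).
Tead2: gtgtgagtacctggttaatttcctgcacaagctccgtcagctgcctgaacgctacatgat
Lats1: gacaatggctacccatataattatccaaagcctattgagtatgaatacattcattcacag
Wwtr1: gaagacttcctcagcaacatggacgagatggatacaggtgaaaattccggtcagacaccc
Among the 5 genes with several measured probes, the probe nearest the 5′ end had the higher difference in Tead1 (by 0.79 log2, against a lower bound) and Lats1 (by 0.69 log2) and the lower one in Tead2 (-0.39), Lats2 (-0.49) and Wwtr1 (-0.06). No single direction along the transcript was therefore shared by these genes. Exon and UTR borders were not used here, and isoform use was not tested.

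Amotl2 had the largest difference of the 10 genes and was the 1 member past 2-fold. AMOTL2 is an angiomotin-like junction protein that binds YAP and TAZ and also promotes LATS activity. Its probe (base 3468, chr9:102635025-102635084, mm9, plus strand) gave a signal of 3739 at passage 5 and 7786 at passage 20. The signal was thus higher at passage 20 even before scaling, and after scaling the difference was 1.41 ± 0.20 log2, 2.65-fold. A lower value was found in 99.1% of the genes measured on both arrays. It stayed past 2-fold under each of the 5 other scalings between arrays, the lowest being 1.09 with median centring. Amotl2 minus Yap1 was 1.96 ± 0.29 log2. Amotl2 minus Lats2, the other member that is a known target of YAP and TAZ, was 1.12 ± 0.29 log2. Only 1 probe reads Amotl2, so no second probe bears on it.

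Of the remaining angiomotin genes, Amotl1 could not be measured and Amot was within 2-fold. Amotl1 gave 45.5 and 45.0 by the brighter probe and 25.8 and 22.6 by the other, both not well above background on either array, so no direction is given for it, and the files place only 34 bases of the brighter probe on the genome. Amot, the founding member of the family and not among the 10 genes, was above background by 1 of its 3 probes, with signals of 2085 and 1567 and a difference of -0.07 log2. Amotl2 minus Amot was 1.47 ± 0.29 log2. Amot and Amotl2 were the family members that could be set side by side.

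**Figure D3:**
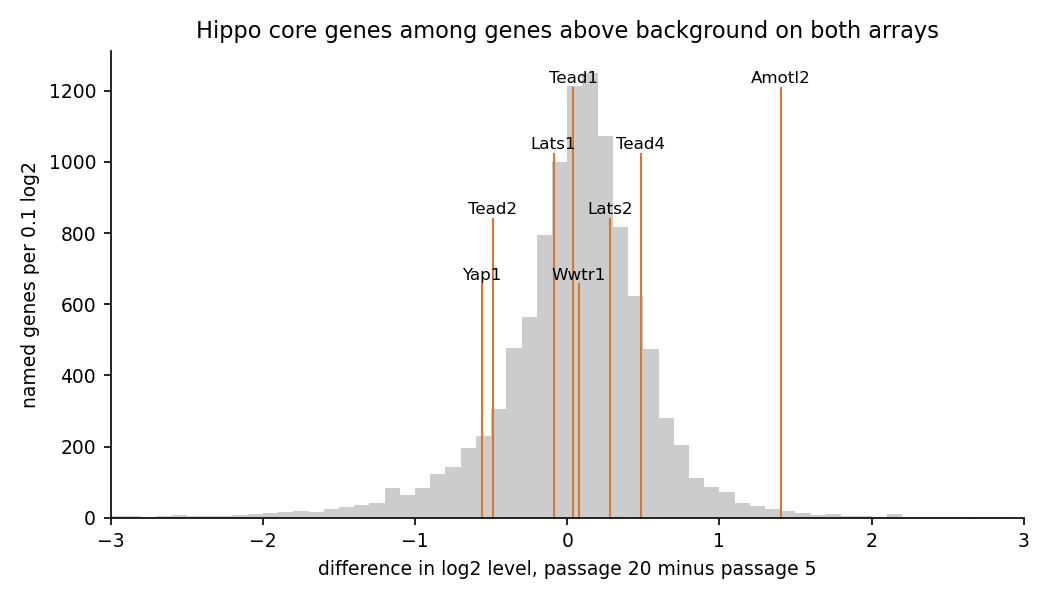
Number of named genes (y axis) by difference in log2 level, passage 20 minus passage 5, in steps of 0.1 log2 (x axis, drawn from -3 to 3), for the 10748 genes above background on both arrays. Orange lines mark the 8 measured Hippo core genes by their brightest probe: Yap1 and Tead2 lie in the left flank, Amotl2 in the right tail, and the others in the body of the distribution.

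Most genes that act on the core, from the kinases above it to nuclear cofactors beside it, were within 2-fold. Of 52 such regulator genes in 6 groups, 45 were measured, 43 of them within 2-fold, 0 higher and 2 lower by 2-fold or more, with a median of 0.00 log2. The share lower, 4.44%, was near the 5.74% of all genes. All 7 measured genes of the MST group were within 2-fold, with a median of 0.07 log2. Stk3 and Stk4 differed by 0.00 and 0.14 log2, the scaffold gene Sav1 by 0.06 and the LATS coactivator gene Mob1a by 0.15. Its paralogue Mob1b differed by 0.61 log2, with another probe at -0.07. Stk4 had probes from 0.14 to 0.78 log2. The group with Merlin, KIBRA and the large cadherins had the highest median of the 6, 0.20 log2, with 7 genes measured and all within 2-fold. In it Nf2, which encodes Merlin, differed by -0.51 log2 by the 1 of its 3 probes that was measured. The atypical cadherin gene Fat1, chosen after its value was seen, lay just inside the threshold at 0.99 log2, with probes from 0.20 to 1.73.

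The 2 regulator genes past 2-fold were Vgll4 and Map4k1. VGLL4 is a nuclear protein that competes with YAP for TEAD factors. Its probe gave signals of 1120 and 421, a difference of -1.07 log2 or 2.09-fold lower. Map4k1, a kinase gene known from blood cells, had signals of 425 and 142 and differed by -1.24 log2. Both calls were lost with normexp background correction, under which 0 regulator genes were at least 2-fold lower. The share of all genes that much lower was then 3.38%, against 5.74% under the main processing. The other groups, of MAP4K and TAO kinases, polarity and junction proteins, inhibitors of the kinases, and nuclear cofactors, had medians of -0.09, -0.04, -0.05 and -0.07 log2.

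Among known targets of YAP and TAZ, the CCN genes and Ankrd1 had large differences. Of 25 listed targets, not counting Lats2 and Amotl2, 23 were measured: 7 were at least 2-fold higher, 1 at least 2-fold lower and 15 within 2-fold. Ajuba, at -0.13 log2, is counted both among these targets and among the regulators, as an inhibitor of the kinases. The share higher was 30.4%, against 3.26% of all genes, and the median difference was 0.41 log2, against 0.07. This list was drawn up with earlier results of these arrays known, so it is no independent support for a direction. Ccn1, a matricellular protein gene, had signals of 5772 and 31310 (2.79 log2). Ccn2, its relative, had 3724 and 15793 (2.43 log2), and Ankrd1, a nuclear ankyrin repeat protein gene, had 7094 and 28320 (2.34 log2). All 3 differences exceed the 1.41 log2 of Amotl2. Ccdc80, a matrix protein gene, differed by 2.20 log2, the kinase gene Nuak2 by 1.20 and the tissue factor gene F3 by 1.06. Igfbp3, named after its value was seen, differed by 1.05 by 1 of its 3 probes. In the other direction Fjx1, a relative of the fly gene four-jointed, was above background at passage 5 only (478 against 29.8) and at least 3.97-fold lower. Tgm2, also named after its value was seen, lay just inside the threshold at -0.95, with its other measured probe at 1.56.

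The target counts moved with the processing, as did those of all genes. With normexp background correction or cyclic loess 5 of the targets were at least 2-fold higher, when 2.14% and 2.29% of all genes were. With spike-in scaling or median centring 4 of the targets were at least 2-fold higher, when 1.98% and 1.64% of all genes were. The list medians were then 0.20 and 0.10 log2, against -0.14 and -0.24 over all genes. The target median minus that of all genes was 0.34 log2 under the main scaling and under both of these. Under the main scaling 16 of the 23 measured targets had positive values and 7 negative ones, when 57.4% of all genes were positive. Amotl2 was higher, Yap1 lower, and Wwtr1 differed by less than its scanner error. Because the list was drawn up with earlier results known, likeness in direction to its higher genes is no separate support. Several of these targets also respond to other pathways, and which signal reached them was not tested.

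**Figure D4:**
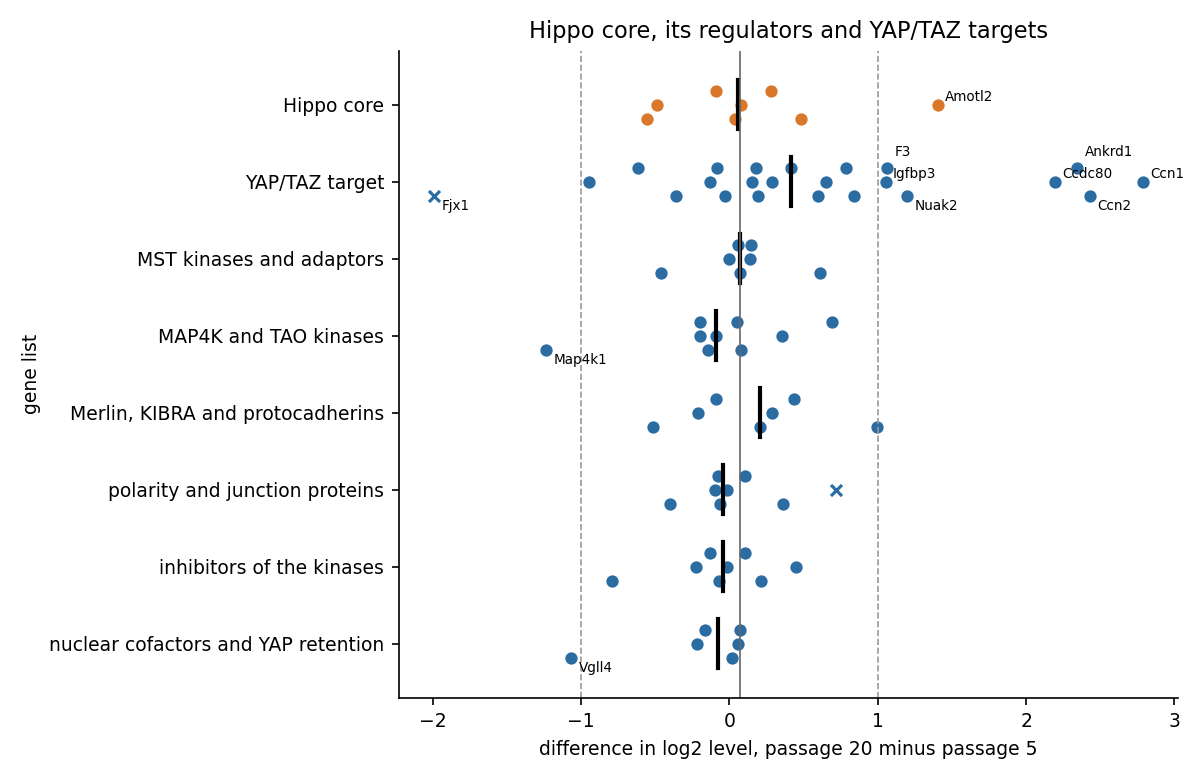
Difference in log2 level, passage 20 minus passage 5 (x axis), for each measured gene of the Hippo core (orange), of the YAP/TAZ target list and of 6 groups of Hippo regulators (blue), by list (y axis). Ajuba is drawn both as a target and as a regulator. Crosses are bounds, black bars list medians, the grey line the median of all genes at 0.07, dashed lines 2-fold, and genes past 2-fold are named; 7 targets, 0 regulators and 1 core gene lie right of the upper dashed line.

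Markers put these results in context. Of 10 hepatoblast markers 8 were measured, 6 of them with negative values, and the median was -0.19 log2. Epcam, a surface adhesion gene, was the 1 past 2-fold, at -1.17 log2 or 2.24-fold lower. Krt19 differed by -0.52 log2 and Sox9, another gene of duct cells, by -0.51. Afp, a fetal liver gene, differed by 0.09 log2 and Krt18 by 0.16. Krt8 differed by -0.18, Foxa2 by -0.11 and Hnf4a by -0.21, with Hnf4a probes from -0.21 to 0.52. Alb and Dlk1 stayed short of the well-above-background flag on both arrays. None of 6 endothelial markers was measured, and Pecam1 and Cdh5 were at background. Of 8 stellate and fibroblast markers, Col1a1, Col1a2, Col3a1, Des, Pdgfrb and Lrat were not well above background. Acta2 differed by -0.10 log2 by its brightest probe and by -3.11 by its other measured probe. Dcn was at least 15.9-fold lower by the 1 of its 2 probes that was measured. Of 6 leukocyte markers 3 were measured, with a median of 0.19 log2. Cd68 differed by 0.34 log2 and Cd3e by 0.19, and Ptprc was not well above background. Lyz2 was above background at passage 5 only, so its value is a bound. Cd3e gave signals of 161 and 145 by 1 of its 2 probes, and Lyz2 122 and 31.7. The lowest signals well above background were 109 and 94.6, so both genes were dim. The summed unscaled signal of the 6 leukocyte markers was 842 and 724. Of 4 mesothelial markers, Msln differed by 0.48 log2 and Upk1b by -0.18, while Upk3b and Wt1 were at least 4.34-fold and 2.02-fold lower. The part of these markers in the differences of Yap1, Tead2 and Amotl2 was not tested. In such bulk RNA, fewer cells with a transcript and less of it per cell cannot be told apart.

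Under other ways of processing, 4 of the 8 measured members kept their direction throughout. Yap1 stayed negative in 12 of 12 alternatives, from -0.87 to -0.55 log2, and Tead2 in 12 of 12, from -0.80 to -0.49. Amotl2 was positive in 12 of 12, from 1.09 to 1.41, and Tead4 in 12 of 12, from 0.17 to 0.49. Yap1, Amotl2 and Tead4 have 1 measured probe each, so averaging over probes or changing the filter on dim probes returned their main value. Their counts of 12 therefore include alternatives that could not differ. Wwtr1 ranged from -0.24 to 0.08 and Lats2 from -0.03 to 0.29. Wwtr1 was below 0 with median centring and spike-in scaling and Lats2 with median centring, and these scalings move every gene alike. Wwtr1 lay within 0.01 log2 of the median of all genes, and Lats2 0.21 above it, under the main scaling and under both of these. Lats1 ranged from -0.40 to 0.26 and was above 0 where its probes were averaged, and Tead1 ranged from -0.27 to 0.83. The values of Lats1 and Tead1 therefore depended on the probe as well as on the scale. Those of Lats2 and Tead2 depended on the probe too. When probes were averaged, Lats2 fell from 0.28 to 0.07 log2, which is -0.01 relative to the median of all genes. By the median of its probes Lats2 was at 0.13 log2. Tead2 went from -0.49 to -0.68 log2 when its probes were averaged.

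**Figure D5:**
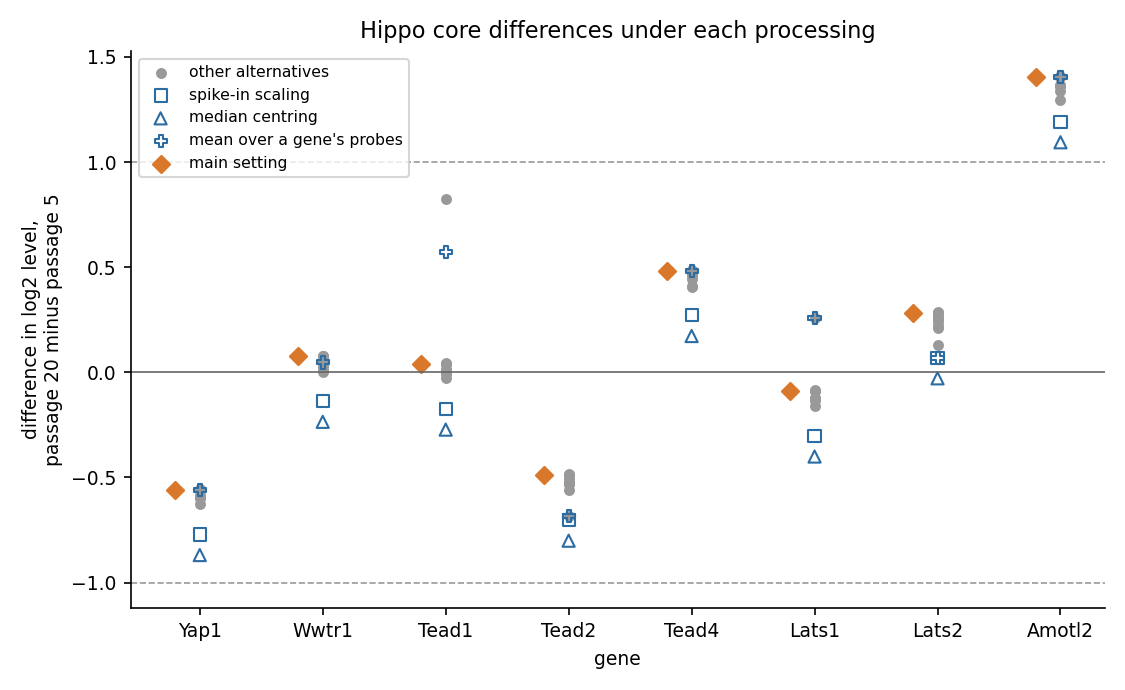
Difference in log2 level, passage 20 minus passage 5 (y axis), of the 8 measured Hippo core genes (x axis) under the main processing (diamonds) and 12 alternatives. Squares are spike-in scaling, triangles median centring, plus signs the mean over a gene's probes, grey points the other alternatives and dashed lines 2-fold; Amotl2 lies above 1 throughout, Yap1 and Tead2 lie below 0 throughout, and Tead1 ranges from -0.27 to 0.83.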

How the data were processed

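Per the labels' protocols, amplified Cy3-labelled RNA from each passage was read on 1 Agilent mouse array in a single colour. The authors deposited spot intensity from Feature Extraction 10.7.3.1 (probe build mm9), per the file headers with spatial and multiplicative detrending on, a surrogate for spots within noise, and the global background correction off. Flags for other spot qualities were deposited too. The authors also deposited log2 values, whose columns hold nearly the same sorted values (they part by at most 0.000609, and each has a median of 6.31) and follow the log2 scanner signal (r = 0.9999 across probes), so they are levels and not centred by gene. The sources used here do not name the tool that made them.

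Control spots and 132 outlier spots (0 of members) were left out. Log2 signals were averaged per probe and each array's 75th percentile subtracted. Gene names came from RefSeq (GRCm38.p6): 27660 probes by accession, 5595 by symbol, 470 by an older symbol, 7449 unnamed. A gene took its brightest probe. A probe above background on 1 array got a bound against the higher of its own dim value and that array's lowest level well above background (-3.32 at passage 5, -3.17 at passage 20). All members, all list genes past 2-fold (up to 6 per direction) and 11 fixed genes are named; a few others were named after their values were seen. Map4k6, an older symbol of Mink1, was counted once. Members and lists were chosen with earlier results of these data known. With 2 arrays, likeness of pattern cannot be measured. Alternatives used limma 3.58.1 (normexp with offset 50, quantile, loess) in R 4.3.3; the rest used Python 3.11.15. The steps were tested on simulated data.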

Additional observations from a re-analysis of the deposited data

How the results depend on the processing

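The number of Hippo core genes at least 2-fold higher stayed at 1 under 13 of 14 alternatives and was 0 at a 4-fold threshold. The number lower was 0 in all 14. Over all genes the share higher ran from 0.50% at 4-fold to 10.4% at 1.5-fold, and the share lower from 1.36% to 11.8%. The median of the core genes was -0.25 with median centring and -0.16 with spike-in scaling, against 0.06. For the YAP/TAZ targets the number higher was 4 with median centring, 4 with spike-in scaling, 11 at 1.5-fold and 4 at 4-fold, when 1.64%, 1.98%, 10.4% and 0.50% of all genes were; the number lower was 2 with median centring, spike-in scaling and cyclic loess, 0 with both arrays above background, 3 at 1.5-fold and 0 at 4-fold (all genes 9.55%, 8.19%, 7.15%, 3.98%, 11.8% and 1.36%); and the median was 0.10 with median centring and 0.20 with spike-in scaling. The number of targets higher was 5 with normexp and 5 with cyclic loess, when 2.14% and 2.29% of all genes were. For the regulators the number higher was 4 at 1.5-fold, and the number lower was 0 with normexp and 0 at 4-fold. Under these settings 10.4% of all genes were higher, 3.38% lower and 1.36% lower, in that order. The regulator median was -0.32 with median centring and -0.22 with spike-in scaling. These 2 scalings moved the median of all genes from 0.07 to -0.24 and -0.14, and the share of higher genes among all that differed 2-fold from 36.3% to 14.6% and 19.4%; it was 24.2% with loess and 50.0% with no filter on dim probes. Spike-in scaling rests on 7 probes. No paired analysis was possible because each passage has 1 array. Dim probes limit what can be said of Tead3, Amotl1 and the short Lats2 transcript, and leaving out an array leaves no comparison.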
